A study of Mus musculus with 2 samples.

Results

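The Snrpn-Ube3a imprinted domain of mouse chromosome 7 was described from the promoter contacts of its 7 coding genes Atp10a, Ube3a, Snrpn, Ndn, Magel2, Mkrn3 and Peg12. Every window of 50 kb that overlaps the annotated span of one of these genes was taken, which gave 22 of the 43941 windows in the table. Snrpn overlapped 11 windows, Atp10a 4, Ube3a 3, and Ndn, Magel2, Mkrn3 and Peg12 1 each. From the first to the last of them the domain covers 3.85 Mb, chr7:58650001-62500000 on GRCm38 (mm10). The 45 listed windows between the members and the 20 windows within 500 kb on either side served as context. Of the 77 windows that the domain could hold, 67 were in the table, and the other 10 are not analysed here. Most of those 10 lie between Ube3a and Snrpn, at chr7:59350001-59600000 and chr7:59700001-59900000, which leaves only 3 listed windows in that interval.

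Promoter Capture Hi-C measures which genomic fragments lie close to promoters in the nucleus. Crosslinked chromatin is cut, its neighbouring ends are ligated, and RNA baits then pull out the ligation products that contain a promoter fragment. The cells were F121-6, a female mouse embryonic stem (ES) cell line from a 129 / cas hybrid, so each autosome is present as 1 copy of the 129 strain and 1 of Mus castaneus (Cas). They were grown in serum and LIF on mouse embryonic fibroblasts (MEFs) that mitomycin C had inactivated, received no treatment, and represent a single cell line. The 2 samples, replicates 1 and 2, form 1 group and share pooled columns, so the 129 allele was compared with the Cas allele within 1 dataset and no spread between replicates exists. The sources used here do not say which strain was the mother. The parental origin of an allele and its strain therefore cannot be told apart, and no allele is called maternal or paternal below. Contact data hold no RNA, so neither the ES identity of the cells nor the imprinted expression of the genes could be checked, and the share of reads from feeder cells was not tested.

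Genomic imprinting marks an allele by the parent it came from. In this domain the imprinting centre at the Snrpn promoter is methylated on the maternal chromosome, and Snrpn, Ndn, Magel2, Mkrn3 and Peg12 are transcribed from the paternal one. A long transcript, Snhg14, is annotated from the farthest upstream start of Snrpn and carries the snoRNA clusters. In neurons it runs antisense through Ube3a, which is then expressed from the maternal allele, while most other cells use both Ube3a alleles. In humans, loss of the paternal genes causes Prader-Willi syndrome and loss of maternal UBE3A causes Angelman syndrome.

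The baits target promoters and the imprinting centre is itself a promoter, so 2 Snrpn promoters and that of Ndn, which share a stretch, are printed here with that of Ube3a, which lacks it and has the most CG dinucleotides of the members. The sequences are from RefSeq on GRCm38.p6, each running 5′ to 3′ on its gene's strand from 250 bases before to 50 bases after the annotated start. Snrpn has 4 annotated starts on the minus strand, and the start that it shares with Snurf is the one at the imprinting centre. Capitals mark CGCATGCG, a stretch of 8 bases that reads the same on both strands and was picked after the sequences had been compared.
Snrpn, start shared with Snurf, chr7:60005150-60005449, minus strand: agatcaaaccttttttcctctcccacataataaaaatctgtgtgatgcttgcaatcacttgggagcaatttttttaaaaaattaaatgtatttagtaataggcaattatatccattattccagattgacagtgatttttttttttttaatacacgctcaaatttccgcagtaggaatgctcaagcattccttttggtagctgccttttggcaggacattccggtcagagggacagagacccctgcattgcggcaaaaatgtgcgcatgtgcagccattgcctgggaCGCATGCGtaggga
Snrpn, upstream start, chr7:60140176-60140475, minus strand: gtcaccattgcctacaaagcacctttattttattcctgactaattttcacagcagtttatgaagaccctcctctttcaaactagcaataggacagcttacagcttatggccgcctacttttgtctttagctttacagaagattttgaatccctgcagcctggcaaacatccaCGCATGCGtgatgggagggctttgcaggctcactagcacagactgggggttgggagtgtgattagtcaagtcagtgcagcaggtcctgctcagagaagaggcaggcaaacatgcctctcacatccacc
Ndn, chr7:62348027-62348326, plus strand: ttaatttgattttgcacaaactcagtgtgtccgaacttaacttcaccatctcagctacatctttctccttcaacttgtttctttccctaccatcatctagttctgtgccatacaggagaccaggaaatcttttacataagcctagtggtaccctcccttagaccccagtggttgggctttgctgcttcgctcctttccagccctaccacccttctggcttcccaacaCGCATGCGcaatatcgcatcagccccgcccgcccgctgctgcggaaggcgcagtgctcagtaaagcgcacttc
Ube3a, chr7:59228500-59228799, plus strand: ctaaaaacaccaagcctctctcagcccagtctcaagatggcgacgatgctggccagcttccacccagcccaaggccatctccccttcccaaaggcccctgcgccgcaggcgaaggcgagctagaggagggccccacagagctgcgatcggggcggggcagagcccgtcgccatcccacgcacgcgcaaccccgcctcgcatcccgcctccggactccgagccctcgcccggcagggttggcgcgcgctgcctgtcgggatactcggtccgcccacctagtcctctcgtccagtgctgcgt
The stretch occurred once in each of the 4 Snrpn promoters and once in the Ndn promoter, and not in these windows of Ube3a, Atp10a, Magel2, Mkrn3 or Peg12. It was found in 581 of 31365 promoters of the same length, or 1.85%. In Ndn it overlaps GCATGCGC, the core searched for NRF1, which 2.69% of all promoters held on either strand and which no other member promoter held. The letters CCATNTT, searched on both strands for YY1, were present at Ube3a, Magel2 and Mkrn3 and in 15.9% of all promoters. A match is a description of the letters and not evidence of binding.

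The members' promoters differed widely in CG dinucleotides, the sites at which mammalian DNA is methylated. Ube3a had 29 in 300 bases, Atp10a 20, Mkrn3 15, Peg12 12, Ndn 11 and Magel2 10. The start that Snrpn shares with Snurf had 7, equal to the median of all 31365 promoters, and the 3 upstream Snrpn starts had 2, 3 and 4. Those 3 upstream promoters were 79.7% to 81.4% identical to each other in pairwise alignments and 47.3% to 51.5% identical to the promoter shared with Snurf. The HindIII site AAGCTT, at which the chromatin was cut, was in none of the member promoters and in 7.45% of all promoters.

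The 129 allele held 50842396 of the interactions in the table, against 37470557 for the Cas allele, which makes the autosomal 129 share 57.57%. Below, a ratio is log2((129 + 1)/(Cas + 1)) minus the median of all windows, 0.45, so 0 stands for the usual window and a positive value for more 129. Each window was tested against the autosomal share with a two-sided beta-binomial test, which allows for the spread between windows (a standard deviation of 6.35 percentage points), with Benjamini-Hochberg adjustment over 43762 windows. An exact binomial test, which allows for counting error only, was run as a second rule.

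The members leaned slightly to 129, within the spread of other windows. Over the 22 member windows, 20428 interactions were on the 129 allele against 13441 on the Cas allele, a 129 share of 60.31% (exact 95% interval 59.79 to 60.84, counting error only). Their median ratio was 0.23, with a range of -0.73 to 0.96, and 15 of 22 lay above 0. All 22 had the summed count of 10 needed for testing. The beta-binomial test called 0 of the 22, against 0.944% of all windows, and 1 of them had an unadjusted p under 0.05. The exact binomial test called 15 of the 22, 11 towards 129 and 4 towards Cas, against 51.4% of all windows. At this spread a modest difference was not detectable, since among windows of 1000 or more interactions only those with a 129 share of at least 78.3% or at most 35.0% were called.

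**Figure D1:**
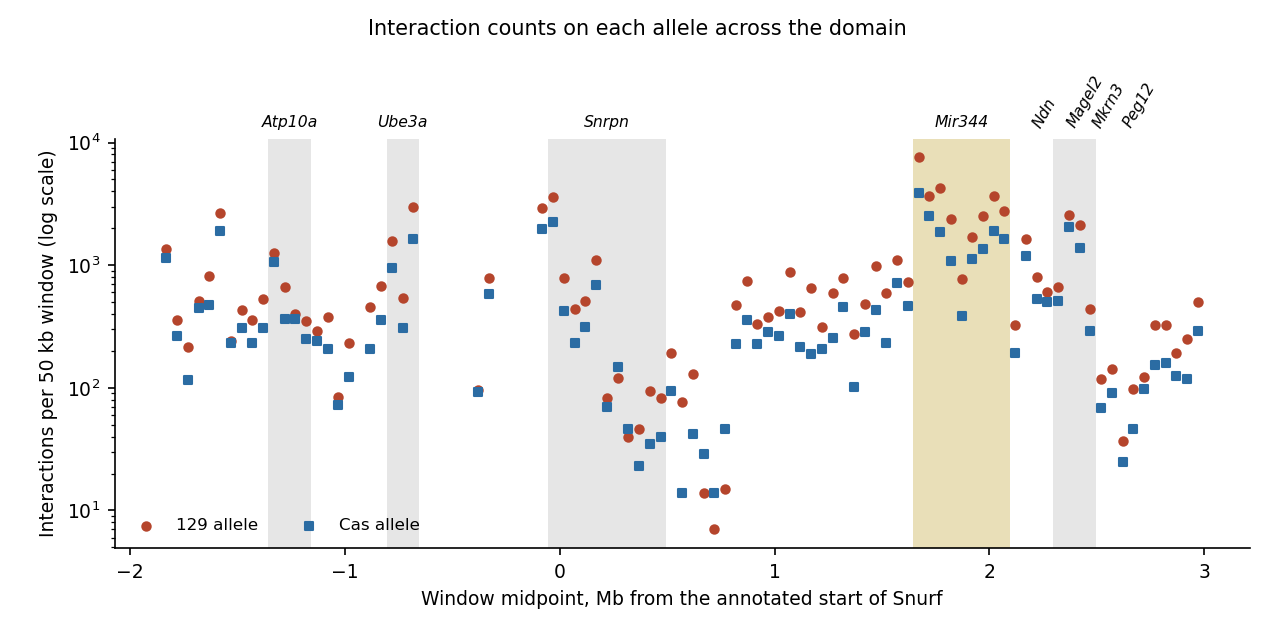
Interactions per 50 kb window (vertical axis, log scale) on the 129 allele (red circles) and the Cas allele (blue squares), by distance of the window from the annotated start of Snurf, with grey bands for member windows and a yellow band for the Mir344 windows. Both alleles follow the same profile, with high counts at the 3′ end of Snrpn, at the Mir344 windows and at Magel2, and a trough in the far part of Snrpn and just beyond it.

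Snrpn, which encodes a spliceosomal protein and shares its transcript with Snurf at the imprinting centre, spans chr7:59982495-60450177. Summed over its 11 windows it had 6900 interactions on the 129 allele against 4251 on the Cas allele, a 129 share of 61.88%. The contacts were concentrated in the window that holds the 3′ end of the gene. The Snurf start, at 60005199, lies just past the edge of that window, so part of its surroundings is counted there. The window chr7:59950001-60000000, which holds the 3′ end, had 3576 on 129 against 2233 on Cas. That sum was at least as high as in 93.0% of 18074 windows with 1 protein-coding gene, while this window overlaps 2. The next window, chr7:60000001-60050000, which holds the Snurf start, had 790 on 129 against 425 on Cas, a share of 65.02%. The gene split into a rich and a poor stretch, a division drawn after the values were seen. Its 5 windows up to 60200000 had 6432 on 129 against 3890 on Cas, shares of 61.6% to 65.8%, and all 5 leaned to 129. Its 6 windows from 60200001, with the start that Snhg14 shares with Snrpn at their far end, had 468 on 129 against 361 on Cas. In these 6 the window sums were only 69 to 268 and the shares scattered from 45.1% to 73.1% with no common direction. The member window with the lowest p lay there, chr7:60400001-60450000, with 95 on 129 against 35 on Cas, an unadjusted beta-binomial p of 0.0429 and an adjusted p of 0.857.

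The other paternally expressed members lie together at the far end of the domain and each fill 1 window. Ndn, encoding the MAGE-family growth suppressor necdin, spans chr7:62348277-62349928 and had 667 interactions on 129 against 514 on Cas, a share of 56.48%. Ndn ends 72 bp before the end of its window, so part of its surroundings is counted in the Magel2 window. Magel2, another MAGE-family gene whose product acts in endosomal protein sorting, spans chr7:62376979-62381640 and had 2564 on 129 against 2067 on Cas, a share of 55.37%. Mkrn3, which encodes a zinc-finger ubiquitin ligase known in humans as a brake on puberty, spans chr7:62417593-62420153 and had 2126 on 129 against 1378 on Cas, a share of 60.67%. Peg12, which encodes a protein of the FRAT family that binds GSK3, spans chr7:62461871-62464510 and had 439 on 129 against 292 on Cas, a share of 60.05%. Ndn and Magel2 lay just below the autosomal share and Mkrn3 and Peg12 just above it, all 4 within the spread between loci.

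Ube3a, the ubiquitin ligase that is maternally expressed in neurons, spans chr7:59228750-59310837 on the plus strand. Its start window, chr7:59200001-59250000, had 1571 interactions on 129 against 955 on Cas. The middle window, chr7:59250001-59300000, had 544 on 129 against 307 on Cas. The window at its 3′ end, chr7:59300001-59350000, was the richest, with 2955 on 129 against 1635 on Cas. All 3 windows had 129 shares between 62.2% and 64.4%, the most even set among the members that fill more than 1 window.

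Atp10a, a phospholipid flippase gene reported as maternally expressed in some mouse tissues and strains, spans chr7:58656142-58830244. Its start window, chr7:58650001-58700000, had 1256 interactions on 129 against 1065 on Cas, a share of 54.11%. The second window had 660 on 129 against 366 on Cas, the third 397 on 129 against 361 on Cas, and the fourth 349 on 129 against 250 on Cas. The second window leaned to 129 and the third to Cas by similar ratios of 0.40 and -0.32, so that the gene as a whole stayed near the autosomal share at 56.59%.

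Ranked by the 129 share of the whole gene, the order was Ube3a (63.64%), Snrpn (61.88%), Mkrn3 (60.67%), Peg12 (60.05%), Atp10a (56.59%), Ndn (56.48%) and Magel2 (55.37%). No neighbours in this order differed beyond their spread, and Ube3a exceeded Magel2 by 8.27 percentage points where 14.3 points would have been needed. The beta-binomial test called 0 of the 7 genes, against 1.36% of 18475 protein-coding loci, and 0 had an unadjusted p under 0.05, the lowest being 0.244 for Ube3a. The exact binomial test called 4 of the 7, Ube3a, Snrpn and Mkrn3 towards 129 and Magel2 towards Cas, against 67.5% of all loci, 29.2% towards 129 and 38.3% towards Cas. The 15 windows of paternally expressed genes, 11 of them from Snrpn, had a share of 59.89% and a median ratio of 0.23. The 7 windows of Ube3a and Atp10a, maternally expressed in neurons or some tissues, had 61.02% and 0.26. Whether members separate by parental expression cannot be read from this. The spread between loci hides a modest difference, and most cells other than neurons use both Ube3a alleles.

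**Figure D2:**
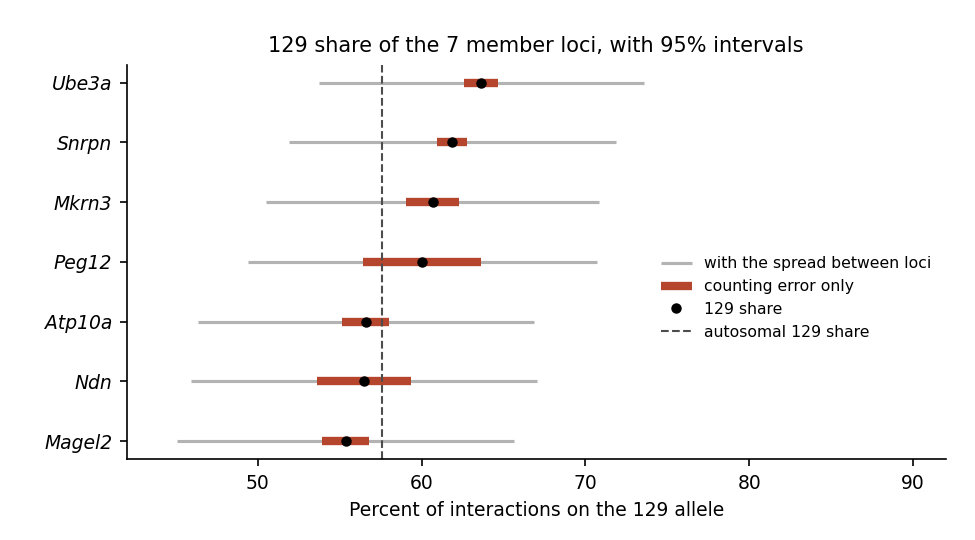
Percent of interactions on the 129 allele (horizontal axis) for each member gene, with a thick red bar for the 95% interval from counting error and a thin grey bar for the 95% interval that adds the spread between loci. Every grey bar crosses the dashed line at the autosomal share of 57.57%, and the bars of all 7 genes overlap.

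The longest stretch between members lies between Snrpn and Ndn, where the table has 36 windows and no member gene, and it also leaned to 129. There 43263 interactions were on 129 against 23756 on Cas, a share of 64.55% (64.19 to 64.92, counting error only), with a median ratio of 0.37 and 30 of 36 windows above 0. Most of these windows hold no protein-coding gene. Over all autosomal windows without one, the share was 58.29%, the median ratio 0.04 and 54.5% of windows lay above 0. Chromosome 7 as a whole had a share of 57.51%, the 10 windows before Atp10a 57.97%, the 6 windows between Atp10a and Ube3a 63.67% and the 10 windows after Peg12 64.22%. Without its 9 windows that hold Mir344 genes, the stretch between Snrpn and Ndn had 63.59%, so its share was close to that of these last stretches, with no test of the differences. A run of 23 adjoining windows, chr7:61000001-62150000, lay entirely above 0, with 37874 on 129 against 20202 on Cas, a share of 65.21%; the run was picked out after its values were seen. The exact binomial test called 26 of the 36 windows towards 129 and 2 towards Cas, against 27.1% and 24.3% of all windows.

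With the beta-binomial test 2 of these 36 windows were called, in opposite directions and on few interactions, against 0.727% of all windows called towards 129 and 0.217% towards Cas. The window chr7:60550001-60600000 had 77 on 129 against 14 on Cas, an adjusted p of 0.0431. Within the same trough, chr7:60750001-60800000 had 15 on 129 against 46 on Cas, an adjusted p of 0.0354. Both calls were lost when the spread was estimated within 5 classes of the summed count, where sparse windows scatter more, at adjusted p of 0.315 and 0.239. That setting called chr7:61150001-61200000 instead, which had 657 on 129 against 189 on Cas, a share of 77.66%, and an adjusted p of 0.0162 against 0.0895 with a single spread. The other windows of largest ratio were chr7:60600001-60650000 with 130 on 129 against 42 on Cas, chr7:60650001-60700000 with 14 on 129 against 29 on Cas, and chr7:58450001-58500000 before Atp10a with 241 on 129 against 232 on Cas. None of these 3 was called by the beta-binomial test with a single spread.

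**Figure D3:**
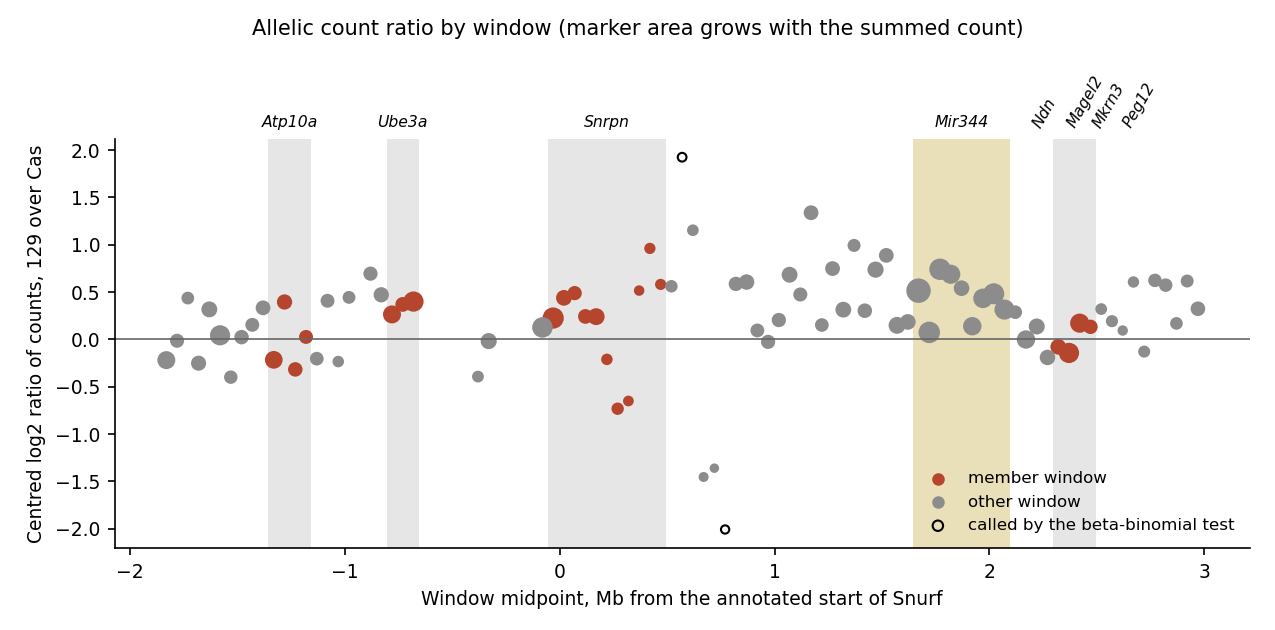
Centred log2 ratio of 129 over Cas (vertical axis) for the 87 windows of the domain and its flanks, by distance from the annotated start of Snurf, with red points for member windows, grey points for other windows and open circles for windows called by the beta-binomial test. All 9 points over the Mir344 band lie above 0, while the small points just beyond the 5′ end of Snrpn scatter from -2.01 to 1.93.

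The contact-rich core of that interval is the Mir344 cluster, 13 microRNA genes in 9 adjoining windows, chr7:61650001-62100000. MicroRNAs pair with target transcripts mainly through bases 2 to 8, the seed, which is in capitals below. The 13 genes give 19 mature names, and the seed GUCAGGC is shared by 6 of them, so the 4 lines that follow show 2 of those 6, a 3p arm that comes from 3 genes, and a 5p arm whose seed differs from the shared one (mature sequences from RefSeq, GRCm38.p6, all on the minus strand).
mmu-miR-344d-1-5p, chr7:61683166-61683189: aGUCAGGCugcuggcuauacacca
mmu-miR-344c-5p, chr7:61837363-61837385: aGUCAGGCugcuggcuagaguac
mmu-miR-344d-3p, chr7:61683127-61683148: gAUAUAACcacugccagacuga
mmu-miR-344f-5p, chr7:62046225-62046246: aGUCAGUCuccuggcuggaguc
The 9 windows had 29323 interactions on 129 against 15773 on Cas, a share of 65.02%, and all 9 had ratios above 0, from 0.07 to 0.74. The window with Mir344d-1 and Mir344d-2 had 7590 on 129 against 3878 on Cas, the highest sum of all 87 windows. Mir344b had 4279 on 129 against 1869 on Cas in its window, a share of 69.60%, the highest of the 9. None of the 9 was called by the beta-binomial test, against 0.944% of all windows, with the lowest unadjusted p of 0.0541 at Mir344b. The exact binomial test called all 9 towards 129, against 27.1% of all windows. The counts say nothing of whether any miR-344 is transcribed in these cells.

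Long noncoding genes of the domain followed the windows they cross. Snhg14, annotated over chr7:59272737-60450177, had 16 of its 25 windows in the table, with 14235 interactions on 129 against 8842 on Cas, a share of 61.68%. Ipw, a paternally expressed noncoding transcript between Ube3a and Snrpn, had 889 on 129 against 678 on Cas, and both of its windows had ratios below 0. A230006K03Rik, between Snrpn and the microRNAs, had 4060 on 129 against 1994 on Cas, a share of 67.06%, and all 7 of its windows leaned to 129. A230057D06Rik, which overlaps the Mir344 windows, had 12808 on 129 against 7008 on Cas, a share of 64.63%. No window of these 4 genes was called by the beta-binomial test under the single spread, against 0.944% of all windows. The window chr7:61150001-61200000 above is 1 of the windows of A230006K03Rik.

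In 1 Mb steps from 58 to 63 Mb of chromosome 7, the 129 shares were 57.5%, 62.1%, 62.9%, 65.4% and 60.9%. The beta-binomial test called 0 of these 5 regions, against 0.422% of 2368 regions, and 1 had an unadjusted p under 0.05. That region was chr7:61000001-62000000, with 31126 on 129 against 16473 on Cas, an unadjusted p of 0.0261 and an adjusted p of 0.623, and 46 of the 2368 regions had at least as high a share. The exact binomial test called 4 of the 5, all towards 129, against 82% of all regions, 46.8% towards 129 and 35.1% towards Cas.

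The deposited table also gives an interaction distance for each allele and window, here taken to be in bp and given in kb. The sources used here do not say whether it is a mean or a median, and it has 1 value per allele, so distances are described without a test. At the Ube3a start window the distance was 20 kb on 129 against 2 kb on Cas. Both were among the shortest of windows with 1 protein-coding gene, where 1.03% had as short a distance on 129 and 0.011% on Cas. At the other 2 Ube3a windows it was 686 and 727.5 kb on 129 against 710 and 722 kb on Cas. The alleles thus had nearly equal distances over the body of Ube3a and differed at its start.

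Snrpn distances were shortest at the 3′ end of the gene and longer in its other windows. In the 3′ window the distance was 16 kb on 129 against 13 kb on Cas. In the window of the Snurf start it was 1722 kb on 129 against 710 kb on Cas, and in chr7:60150001-60200000 it was 711.5 kb on 129 against 212 kb on Cas. Over the other 8 windows it ran from 1558 to 2114 kb on 129 and from 1352 to 5038 kb on Cas. The allele with the longer distance changed within the gene, with 129 longer near the imprinting centre and Cas longer in chr7:60250001-60400000, where counts were low.

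Among the clustered genes distances were short at Ndn, with 79 kb on 129 against 42.5 kb on Cas, and at Magel2, with 99 kb on 129 against 76 kb on Cas. Mkrn3 had 237 kb on both alleles. Peg12 had 1082 kb on 129 against 480.5 kb on Cas. Atp10a ranged from 538 to 3126.5 kb on 129 and from 654.5 to 5852 kb on Cas. Of the 22 member windows, 15 had the longer distance on 129, 6 on Cas and 1 neither, with a median log2 distance ratio of 0.19. At least a 2-fold difference was present in 8 of the 22, 5 longer on 129 and 3 longer on Cas, against 17.1% of all windows, 8.37% longer on 129 and 8.73% longer on Cas.

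Windows between Snrpn and Ndn went the other way, with the longer distance on Cas in 23 of 35 and on 129 in 10, and a median log2 distance ratio of -0.18. Apart from scattered long values, such as 4455.5 kb on Cas at chr7:61250001-61300000, distances here grew shorter on both alleles as windows neared the Mir344 cluster, from 1858 kb on 129 against 1243 kb on Cas next to Snrpn to 39 kb on 129 against 37 kb on Cas at the first Mir344 window. In the context windows the largest distance ratios were at chr7:62600001-62650000 (19141 kb on 129, 2316 kb on Cas), chr7:58350001-58400000 (228.5 kb on 129, 54.5 kb on Cas), chr7:62900001-62950000 (661 kb on 129, 15907 kb on Cas) and chr7:62500001-62550000 (835 kb on 129, 10437 kb on Cas). The called window chr7:60750001-60800000 had 48320 kb on 129 against 1351.5 kb on Cas, from 15 interactions on 129.

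A distance has no direction and names no partner, but it can be set against the map, an arithmetic done after the distances were seen. Adding the distance to the window's midpoint placed the far end inside the Mir344 windows for 7 of 11 Snrpn windows on 129 and 5 of 11 on Cas. Over all windows of the table, not matched for gene content, on average 3.73% had a distance that would do so from the positions of these windows. For Atp10a it did so in 2 of 4 windows on 129 and 0 of 4 on Cas, where 1.54% and 1.44% of all windows would. For Ube3a it did so in 0 of 3 on either allele, where 1.93% and 1.89% would. Between Atp10a and Ube3a it did so in 3 of 6 on 129 and 1 of 6 on Cas. Before Atp10a the count was 0 of 10, and between Ube3a and Snrpn 0 of 3, on either allele. In the 23 windows between Snrpn and the cluster it did so in 17 on 129 against 11 on Cas, with no count minimum set. Among the 17 was chr7:60700001-60750000, with only 7 interactions on 129. There 16.7% of all windows would on average, from 5.05% at the farthest window to 55.1% at the nearest. The 2 Ube3a windows beyond its start window have midpoints 730 and 680 kb from the Snurf start. Their distances were 686 and 727.5 kb on 129 against 710 and 722 kb on Cas, so the window farther from Snurf had the shorter distance. The Snurf start was picked after the distances were seen, and no share of all windows was computed for it. Every interaction needs a baited promoter at one end, so a window without a bait can have contacts only with the baits around it. How far bait positions set these distances was not tested.

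**Figure D4:**
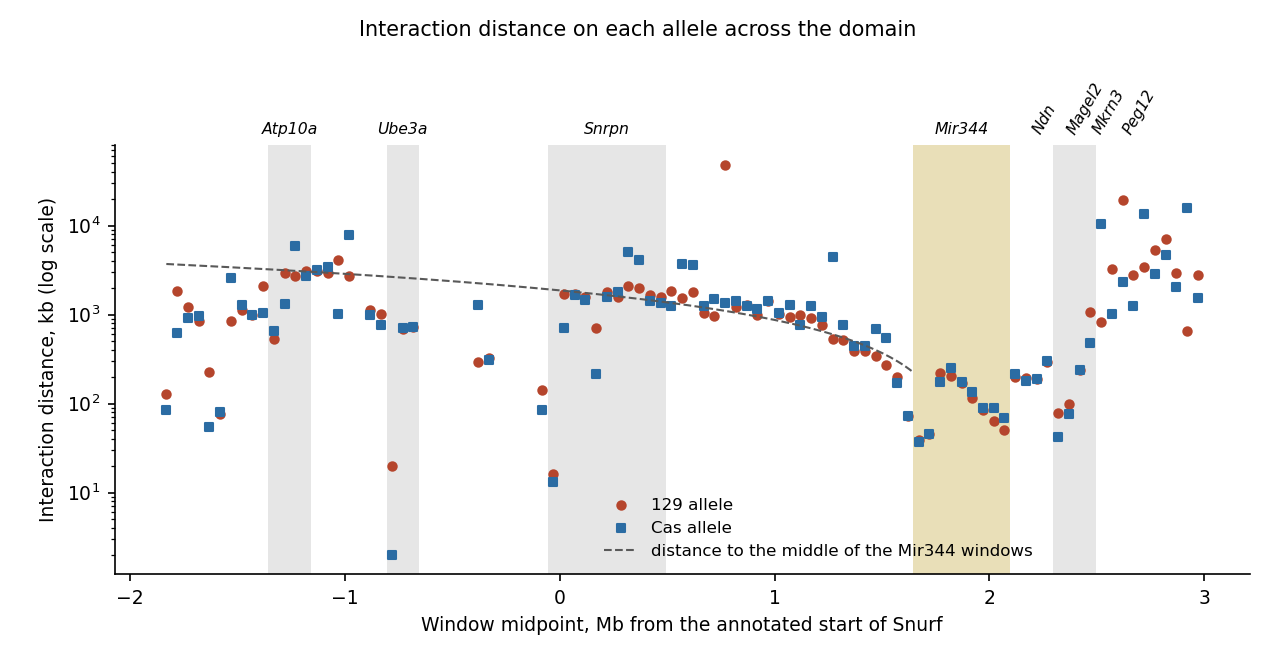
Interaction distance in kb (vertical axis, log scale) on the 129 allele (red circles) and the Cas allele (blue squares) for each window, by distance from the annotated start of Snurf, with a dashed line for the distance to the middle of the Mir344 windows. Many points between Snrpn and the Mir344 band lie near the dashed line, while the Ube3a and Snrpn windows with the shortest distances, down to 2 kb, lie far below it.

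Gene lists gave the same picture at the level of loci. Of the 6 paternally expressed coding loci (Snrpn, Snurf, Ndn, Magel2, Mkrn3, Peg12), 0 were called by the beta-binomial test, against 1.36% of all protein-coding loci. Their median ratio was 0.15, against -0.04 over all protein-coding loci. Snurf and Snrpn share 2 windows, so they are not independent. The 2 genes maternally expressed in neurons or some tissues, Ube3a and Atp10a, had ratios of 0.35 and -0.07. Of 19 nearby genes outside the imprinted cluster 0 were called, with a median of 0.07. The nearby genes with the highest and lowest ratio were Cyfip1, an actin regulator, at 0.37 (3455 on 129, 1951 on Cas) and Nipa2, a magnesium transporter, at -0.42 (2259 on 129, 2202 on Cas).

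Genes outside the neighbourhood were set beside the members for comparison. Of 8 tested family members elsewhere, such as Snrpb, Ube3b, Ube3c, Mkrn1 and Frat1, 0 were called, against 1.36% of all loci. Their median was -0.10. Ube3b and Ube3c, ubiquitin ligases related to Ube3a, had ratios of -0.26 and 0.01, where Ube3a had 0.35. Of 11 tested genes of a list on imprint maintenance 0 were called, with a median of -0.04, from -0.25 at Setdb1, a histone methyltransferase, to 0.45 at Yy1, a zinc-finger factor. Of 14 tested coding genes of other imprinted regions of chromosome 7, 0 were called and the median was -0.06. Inpp5f, a phosphoinositide phosphatase gene, was the lowest of these at -0.66, with 1843 on 129 against 2132 on Cas. Some genes of these lists share windows, such as Frat1 with Frat2, and are not independent. The exact binomial test called at least 1 gene of every list, but it also called 67.5% of all 18475 protein-coding loci.

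**Figure D5:**
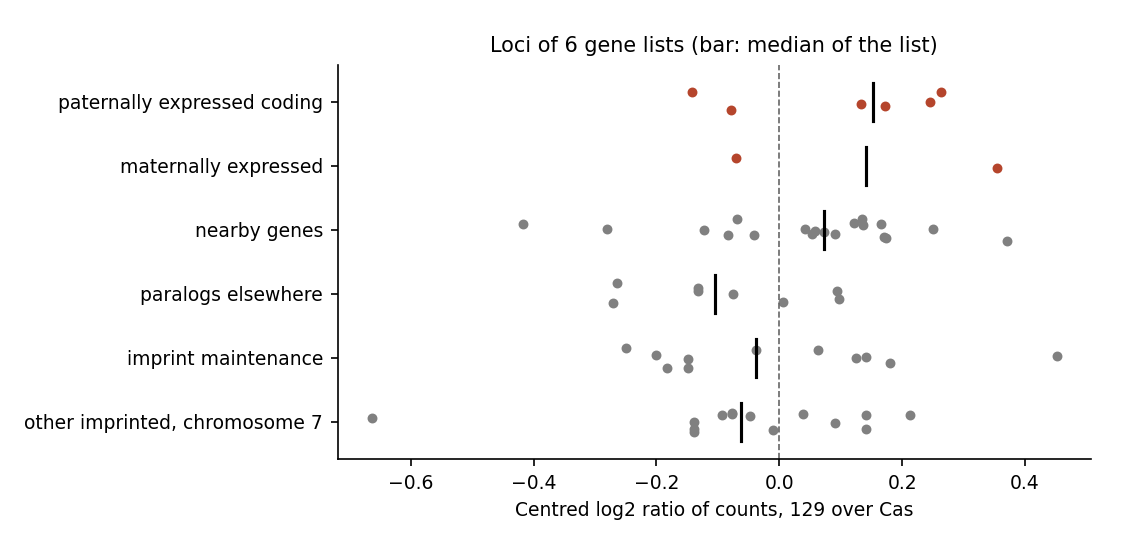
Centred log2 ratio of 129 over Cas (horizontal axis) for each locus of 6 gene lists, with red points for the genes of the domain, grey points for the other lists and a black bar for each median. The medians run from -0.10 for family members elsewhere to 0.15 for the paternally expressed genes, and the ranges of all 6 lists overlap.

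By likeness of pattern over 4 measures (summed count, count ratio and the 2 distances, each scaled by its spread over 18466 protein-coding loci), each member had a nearest locus outside this neighbourhood. Magel2 was nearest A2m (2422 on 129, 1948 on Cas) at a scaled distance of 0.084, and Mkrn3 nearest Slc35g1 (2045 on 129, 1305 on Cas) at 0.082. Ube3a was nearest Ccdc85a at 0.20, Snrpn nearest Dync2h1 at 0.25, Peg12 nearest Cyp2b9 at 0.29, Atp10a nearest Ebf3 at 0.32 and Ndn nearest Wrnip1 at 0.42.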

How the data were processed

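Both samples of F121-6 cells, processed by Promoter Capture Hi-C, carry the same column labels. Fixation used 2% formaldehyde, HindIII cut the chromatin before ligation in the nucleus, the baits covered 22225 promoters, and reads were paired at 100 bp, per the labels' protocols. The submitters' processing notes name Bowtie2 and mm10. Allele assignment, filters and the merging of samples are not given in the sources used here. Reads of the Cas allele differ more from a reference close to 129, and a resulting loss in mapping was not tested.

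The deposited table holds raw whole-number interaction counts per 50 kb window and allele, pooled over both samples, and the deposited distances per window and allele are taken to be in bp. A window's count follows the baits it holds, and both ends of an interaction may be counted, so intervals cover counting error only and not the dependence between counts. The labels do not say whether the replicates are separate cultures.

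Windows were assigned to genes by RefSeq spans on GRCm38, by any overlap, without strand. Counts were summed per window, per gene and per 1 Mb region (50 interactions and 3 windows or more). Units needed a summed count of 10 and were put through a two-sided beta-binomial test, with 1 overdispersion per kind of unit fitted by maximum likelihood (0.0165 for windows, 0.0109 for genes, 0.0052 for regions), Benjamini-Hochberg adjustment over all units and a threshold of 0.05. The code was tested on simulated data. Exact 95% intervals are Clopper-Pearson. Distance ratios needed at least 10 interactions on 129 and 10 on Cas.

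The members and gene lists were chosen with earlier results of these data known. Beside the 7 members and all their windows, the rule named context windows that the beta-binomial test called, the 3 per direction of largest ratio at a count of 30 or more, the 2 per direction whose distances differed most at 20 interactions per allele, and the nearest locus to each member. Noncoding genes, list genes, the run of windows and the Snrpn split were chosen after their values were seen. The alternatives were the exact binomial test, overdispersion within 5 classes of the count, other null shares, thresholds, count minimums, window rules, pseudocounts, centres and region borders. Python 3.11.15 was used with scipy 1.17.1, pandas 2.3.3, numpy 2.4.6 and, for the figures, matplotlib 3.10.9.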

Additional observations from a re-analysis of the deposited data

How the results depend on the processing

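The choice between the beta-binomial and the exact binomial test moved every count of calls. With the exact binomial test the member windows called were 15 and not 0, the member genes 4 and not 0, the 1 Mb regions 4 and not 0, and the windows between Snrpn and Ndn 28 and not 2. The exact test allows for no spread between windows by its construction. With overdispersion fitted within 5 classes of the count, 1 window between Snrpn and Ndn was called and not 2, and no member window or gene was; for the windows between Snrpn and Ndn (as with the exact test there) and for the 1 Mb regions, this setting was added after the data had been seen. The 129 share over member windows was 60.31% over all 22 and 57.97% in the 7 windows that hold 1 start per member. For Snrpn this was the start farthest upstream, and the windows of its other starts were left out. The cause of the difference was not tested. Set against equal shares of both alleles, the ratios of Atp10a (0.38), Ndn (0.38) and Magel2 (0.31) turned positive, because this setting leaves out the centring by 0.45. Of 120 alternative values computed, 107 kept their direction and their side of the threshold or moved by less than the limits set. This tally is lenient. For other pseudocounts and centres of a gene's ratio no test was rerun, so only its direction could change. For the medians over member windows the limit was the standard deviation over windows. It was 0.40 for the count ratio and 1.01 for the distance ratio, wider than the medians of 0.23 and 0.19. No paired analysis was possible because the columns are pooled over both replicates, and for the same reason no replicate could be left out. Depth limits the poor end of Snrpn, where windows hold 69 to 268 interactions, and the windows just beyond it, the lowest of which holds 21.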
